A study of Mus musculus with 7 samples.

Results

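Branched-chain amino acid and propionate catabolism was described across 37 genes in 7 liver libraries, of the 27810 genes listed for each library. The members were chosen by gene name, with methylmalonyl-CoA mutase listed as Mmut, and the list was drawn up with differences between these groups already known. Counts and test results of the members are therefore a description of these libraries. All libraries came from wild-type male C57BL/6j mice given, from 5 weeks of age, the diet that the labels call WD (40% fat, 20% fructose and 2% cholesterol), which the labels name a model of NASH, a fatty liver with inflammation. After 32 weeks on the diet each mouse had 1 tail-vein injection, and liver was taken after 40 weeks. The MSC group (replicates 0, 1 and 2) had received mesenchymal stromal cells of human umbilical cord, called hUC-MSCs in the labels. The vehicle group (replicates 1, 3 and 4) and the vehicle library whose label adds the word Cancer (replicate 6, kept apart as 1 library) had received saline. No group on a normal diet was analysed here. The labels do not say which tissue the word Cancer refers to, nor that each library is a separate animal, so p-values measure the spread between libraries, which may be technical.

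Leucine, isoleucine and valine are broken down in mitochondria. A transaminase removes the amino group, mostly outside the liver, and the branched-chain ketoacid dehydrogenase complex, abundant in hepatocytes, then commits the ketoacids to oxidation. A kinase switches this complex off by phosphorylation and a phosphatase switches it on. The leucine branch ends in acetyl-CoA and a ketone body, while the valine and isoleucine branches yield propionyl-CoA, which a biotin-dependent carboxylase and a cobalamin-dependent mutase turn into succinyl-CoA for the citric acid cycle.

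The values are FPKM, that is fragments corrected for the length of the transcript and the size of the library, so levels can be compared between genes. Read counts could not be recovered from them, so depth is unknown and values carry no counting interval. Mitochondrially encoded genes took 36.4% of the summed FPKM in MSC replicate 1 and 16.5% to 23.3% in the other 6 libraries. A larger share of fragments from such genes would lower all other FPKM, but the share of fragments is not known. The summed FPKM of all genes was also highest in MSC replicate 1, at 514584 against 383776 to 455091 in the other 6 libraries. The summed FPKM of 9 hepatocyte markers was 25653 to 38987 in the MSC group, 21485 to 29254 in the vehicle group and 31240 in the Cancer-labelled library, so the labelled tissue's genes were abundant in all 7. Bile duct markers stood apart in the Cancer-labelled library. Their sum over 7 genes was 517 FPKM there, 48.0 to 165 in the vehicle group and 31.4 to 144 in the MSC group. Spp1 alone held most of that sum in every library, at 453 FPKM, 45.1 to 158 and 28.7 to 139. Every other marker of this list was also highest in the Cancer-labelled library. Erythroid genes (5) summed to 105 to 224 FPKM in MSC, 210 to 903 in vehicle and 563 in the Cancer-labelled library, and macrophage markers (9) to 23.7 to 82.9, 37.9 to 101 and 65.2. The part of either in the values of the members was not tested. In such bulk samples, fewer cells of a type and less RNA per cell cannot be told apart.

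Of the members, 2 averaged at least 100 FPKM over the 7 libraries (Aldh2 and Aldh3a2), 10 lay between 30 and 100, 15 between 10 and 30, and 9 between 1 and 10. Bcat1, the cytosolic transaminase, was the remaining gene, at 0.0198 to 0.171 FPKM, and did not reach 1 FPKM in any library. The other 36 reached 1 FPKM in all 7 libraries and were tested. The deposited table places 28 of the 37 in the KEGG pathway of valine, leucine and isoleucine degradation and 17 in propanoate metabolism. Bckdk, Ppm1k, Mmaa and Mmab, a kinase, a phosphatase and a pair of cobalamin proteins, were in neither.

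**Figure D1:**
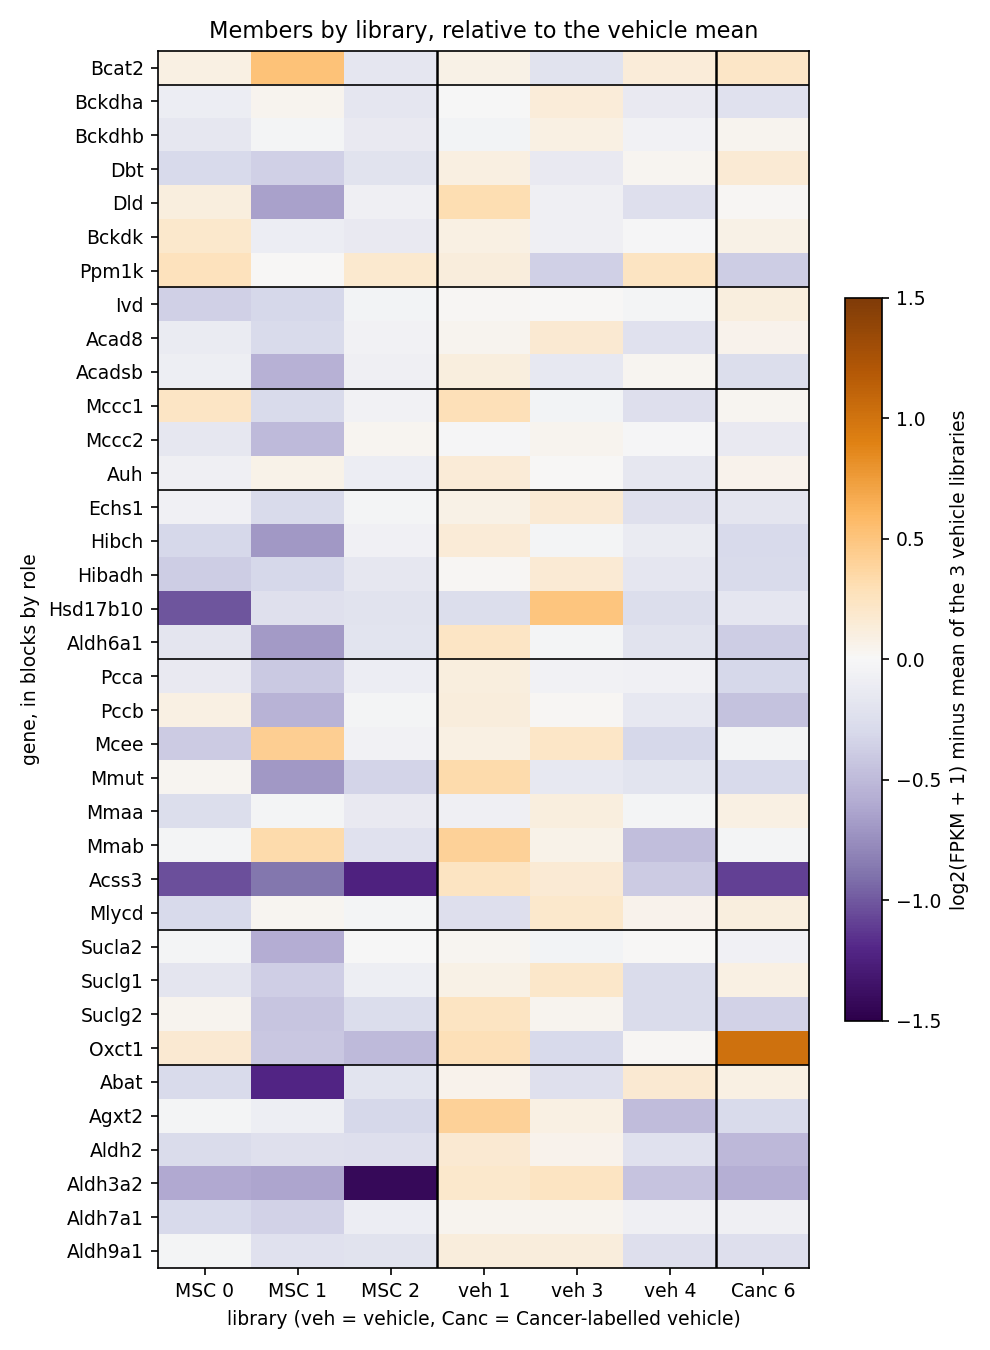
Heat map of the 36 members tested (rows, in blocks by role) in 7 libraries (columns), coloured by log2(FPKM + 1) minus the mean of the 3 vehicle libraries. Acss3 and Aldh3a2 are purple in all 3 MSC libraries, MSC replicate 1 is the lowest of the 7 for 17 members, and Oxct1 is high in the Cancer-labelled library.

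In MSC livers, 33 of the 36 members had a lower mean log2 level than in vehicle livers, but most differences were small. On the scale log2(FPKM + 1), the median of the members' differences (MSC minus vehicle) was -0.21, beside -0.05 over all 10534 genes tested, of which 60.1% were lower. None of the members passed in limma after Benjamini-Hochberg adjustment over all genes (adjusted p under 0.05), where 0.0190% of all genes did (0.00949% lower and 0.00949% higher). An unadjusted p under 0.05 was reached by 2 members, Acss3 and Aldh3a2, against 5.59% of all genes. A log2 difference of -0.5 or below was found in 3 members (Acss3, Aldh3a2 and Abat) and 4.52% of all genes, and one of 0.5 or above in 0 members and 2.28% of all genes. The 3 MSC values lay below all 3 vehicle values for 7 members (Acss3, Aldh3a2, Aldh2, Aldh7a1, Dbt, Ivd and Pcca), which is 19.4% of those tested against 7.84% of all genes. No member lay above, against 2.17% of all genes. The number without overlap rested on the scaling. With mitochondrially encoded genes removed and the others scaled up to each library's former sum, 28 of 36 members were lower, against 45.6% of all genes. Then 2 (Acss3 and Pcca) did not overlap, against 4.59%. After median centring 29 were lower, against 51.9% of all genes, and 2 (Acss3 and Aldh3a2) did not overlap, against 6.02%. Quantile normalisation gave the same numbers of members, against 50.2% and 5.96% of all genes, so under these 3 scalings the members without overlap were at about the share of all genes. Rescaled to TPM, 34 were lower, against 72.2% of all genes, and 9 did not overlap, against 6.70%: Acss3, Aldh3a2, Aldh7a1 and Ivd as before, and Hibadh, Hibch, Hsd17b10, Mlycd and Mmaa in place of Aldh2, Dbt and Pcca.

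Windows before the RefSeq start of 3 of the 7 genes without overlap in FPKM (Aldh3a2, Ivd and Pcca) are given here, with that of Oxct1, the member with the largest rise in value in the Cancer-labelled library, because these are the genes the results below turn on. The other 4 had no entry in the promoter table, in which 31 of the 37 members were found. Each sequence is RefSeq's on GRCm38.p6, for the annotated start nearest to the deposited one, and runs from 250 to 51 bases before the annotated start, on the gene's own strand. They come from chr11:61267237-61267436 on the minus strand (Aldh3a2, whose annotated start lies 278 bases inside the deposited gene, so that this whole window is within it) and, on the plus strand, chr2:118861744-118861943 (Ivd), chr14:122534078-122534277 (Pcca) and chr15:4026178-4026377 (Oxct1). Capitals mark matches, on either strand, to CCAAT (a box bound by NF-Y), GGGCGG (a GC box) or AGGTCA (a nuclear receptor half-site), and no matches overlap.
Aldh3a2: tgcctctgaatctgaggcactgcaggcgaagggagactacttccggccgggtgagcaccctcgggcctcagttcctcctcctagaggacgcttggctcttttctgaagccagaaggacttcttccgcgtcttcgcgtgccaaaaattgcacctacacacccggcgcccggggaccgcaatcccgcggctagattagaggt
Ivd: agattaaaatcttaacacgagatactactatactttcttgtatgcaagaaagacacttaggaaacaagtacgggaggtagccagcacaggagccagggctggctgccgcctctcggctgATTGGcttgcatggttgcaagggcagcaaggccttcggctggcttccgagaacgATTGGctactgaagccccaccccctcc
Pcca: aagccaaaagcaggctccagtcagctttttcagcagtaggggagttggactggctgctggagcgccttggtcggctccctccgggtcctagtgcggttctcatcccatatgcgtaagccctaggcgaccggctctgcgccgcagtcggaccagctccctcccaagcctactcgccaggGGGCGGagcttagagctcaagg
Oxct1: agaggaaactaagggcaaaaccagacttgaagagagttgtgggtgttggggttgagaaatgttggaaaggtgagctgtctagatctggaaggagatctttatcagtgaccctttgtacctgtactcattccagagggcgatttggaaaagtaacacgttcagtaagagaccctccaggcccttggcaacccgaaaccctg
Ivd held CCAAT at 2 places, Pcca held GGGCGG at 1, and none of the 3 motifs was in the windows of Aldh3a2 and Oxct1. CCAAT was in 36.8% of 38 member windows and 28.4% of all 32851 windows, GGGCGG in 42.1% and 24.6%, and AGGTCA in 18.4% and 11.4%. Median G and C content was 55.75% in member windows and 51.5% in all windows, and its part in these shares was not tested. The windows shown differed in base composition too, with 63.0% G and C in Pcca, 60.5% in Aldh3a2, 53.0% in Ivd and 48.0% in Oxct1.

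The transaminases open the pathway. Bcat2, the mitochondrial form, measured 4.68, 6.65 and 3.76 FPKM in MSC replicates 0, 1 and 2, and 4.62, 3.63 and 4.87 in vehicle replicates 1, 3 and 4, with 5.23 in the Cancer-labelled library. The MSC and vehicle values overlapped. Its gene body shares 5175 bases with 0610005C13Rik, an antisense RNA gene at 18.7 to 27.1 FPKM, and since the sources used here do not give how strand was handled, the Bcat2 level is uncertain. Per length, Bckdha of the next step was 11.2 to 22.0 times as high as Bcat2 in each library.

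Of the 4 catalytic members of the ketoacid dehydrogenase complex, the transacylase alone had MSC and vehicle values that did not overlap. Bckdha, the alpha subunit of the decarboxylase, measured 67.4, 74.6 and 64.5 FPKM in MSC and 72.0, 80.1 and 66.2 in vehicle libraries (68.8 ± 5.19 and 72.7 ± 6.96, SD, n = 3 each). Bckdhb, the beta subunit, measured 34.6, 37.8 and 35.2 in MSC and 37.5, 41.1 and 37.3 in vehicle libraries (35.8 ± 1.71 and 38.6 ± 2.14, SD, n = 3 each). MSC replicate 1 was within the vehicle range for both subunits. The alpha over beta ratio was 1.77 to 1.97 in those 6 libraries and 1.56 in the Cancer-labelled library, where Bckdha was at 62.2 and Bckdhb at 39.8 FPKM. Dbt, the transacylase that carries the lipoyl arm (chromosome 3, 116513070-116549981, plus strand), measured 15.6, 15.1 and 16.8 FPKM in MSC replicates 0, 1 and 2 and 21.0, 17.7 and 19.9 in vehicle replicates 1, 3 and 4. The groups did not overlap, and the Cancer-labelled library was higher still at 22.0. The log2 difference, MSC minus vehicle, was -0.29 ± 0.16 (SE; limma adjusted p = 0.995). Dld, the dehydrogenase shared with the pyruvate and oxoglutarate complexes, measured 32.9, 19 and 28.6 FPKM in MSC and 37.8, 28.7 and 25.5 in vehicle libraries, lowest in MSC replicate 1.

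The switch genes did not separate the groups. Bckdk, the inhibitory kinase, measured 2.97, 2.24 and 2.17 FPKM in MSC libraries, 2.70, 2.31 and 2.43 in vehicle libraries and 2.68 in the Cancer-labelled library. Ppm1k, the activating mitochondrial phosphatase, measured 18.2, 15.1 and 17.2 in MSC, 16.4, 11.5 and 17.9 in vehicle and 11.4 in the Cancer-labelled library. The phosphatase transcript was thus the more abundant per length in every library. The ratio of Bckdk to Ppm1k was 0.146 ± 0.0187 in MSC and 0.167 ± 0.0324 in vehicle livers (SD, n = 3 each), a difference within the spread of the vehicle group. It was highest in the Cancer-labelled library, at 0.236, followed by vehicle replicate 3 at 0.201, the libraries with the lowest Ppm1k.

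**Figure D2:**
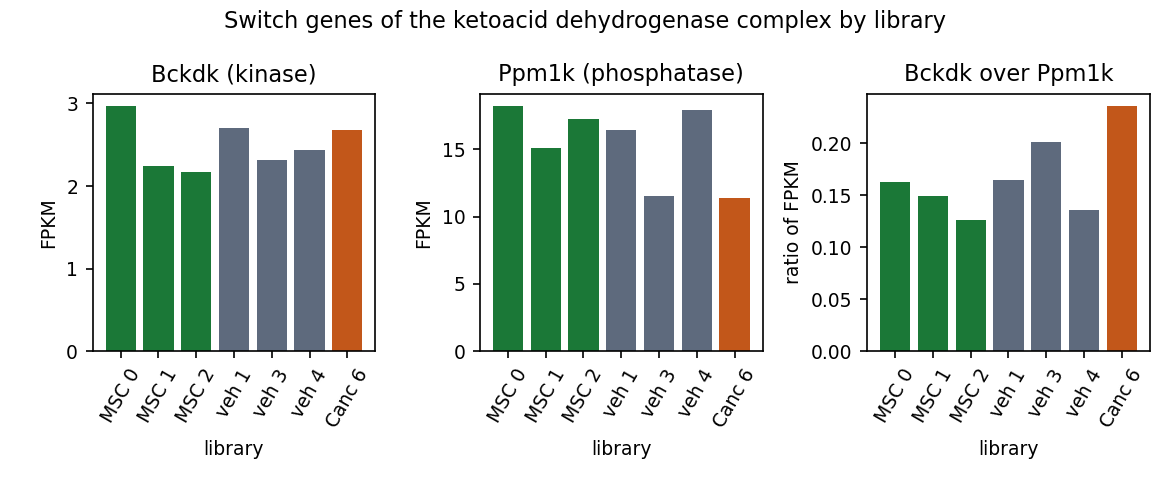
Bars show FPKM of Bckdk (left) and Ppm1k (middle) and their ratio (right) in each of the 7 libraries, coloured by group (green MSC, grey vehicle, orange Cancer-labelled vehicle). MSC and vehicle bars overlap in all 3 panels, and the ratio is highest in the Cancer-labelled library at 0.236.

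The next enzymes are 3 acyl-CoA dehydrogenases, one for each amino acid. Ivd, isovaleryl-CoA dehydrogenase of the leucine branch (chromosome 2, 118861954-118882909, plus strand), measured 15.6, 16.2 and 19.6 FPKM in MSC replicates 0, 1 and 2, and 20.6, 20.3 and 19.8 in vehicle replicates 1, 3 and 4. The groups did not overlap, but MSC replicate 2 lay next to the vehicle values, and the Cancer-labelled library was at 21.9. The log2 difference was -0.23 ± 0.16 (SE; limma adjusted p = 0.995). Acad8, for valine, and Acadsb, for isoleucine, measured 7.92 ± 0.707 and 9.66 ± 1.9 FPKM in MSC against 8.96 ± 1.33 and 11.5 ± 1.09 in vehicle livers (SD, n = 3 each), with overlapping values. Acadsb shares 38344 bases with Fgfr2 on the opposite strand, at 1.45 to 5.27 FPKM, so its level is uncertain too. Further along the leucine branch, Mccc1 and Mccc2, the subunits of methylcrotonyl-CoA carboxylase, measured 3.35 ± 0.772 and 11.3 ± 2.23 FPKM in MSC and 3.47 ± 0.839 and 13.1 ± 0.312 in vehicle livers, and Auh, methylglutaconyl-CoA hydratase, 2.54 ± 0.222 and 2.65 ± 0.391 (SD, n = 3 each). All 3 overlapped between the groups, and an antisense gene at 0.339 to 0.962 FPKM lies across Mccc1. Mccc2, the beta subunit, was 2.80 to 4.70 times its partner in each library.

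All 5 members of the valine and isoleucine branch had a lower mean log2 level in MSC livers, with a median log2 difference of -0.35, yet each overlapped between groups in FPKM, whereas Hibadh, Hibch and Hsd17b10 did not as TPM. Hibch and Hibadh, the hydrolase and dehydrogenase of hydroxyisobutyrate, measured 10.3 ± 2.41 and 19.2 ± 1.62 FPKM in MSC and 13.2 ± 1.38 and 23.5 ± 2.74 in vehicle livers (SD, n = 3 each). Aldh6a1, the semialdehyde dehydrogenase that releases propionyl-CoA, measured 54.3, 37.9 and 53.8 in MSC libraries and 72.6, 60.6 and 53.3 in vehicle libraries. Its lowest value was in MSC replicate 1, and vehicle replicate 4 lay just under the other MSC values. Echs1, an enoyl-CoA hydratase, was at 15.7 to 21.8 FPKM over those 6 libraries, beside 2.93 to 6.81 for Paox, which overlaps it by 678 bases on the opposite strand. Hsd17b10, an isoleucine branch dehydrogenase that also serves mitochondrial tRNA processing, measured 48.9, 85.0 and 86.7 in MSC and 83.9, 141 and 84.1 in vehicle libraries. Single libraries set its spread, MSC replicate 0 at the low end and vehicle replicate 3 at the high end.

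On the log2(FPKM + 1) scale, Acss3 showed the largest difference of all members. It encodes a mitochondrial short-chain acyl-CoA synthetase that activates propionate, and lies on chromosome 10 at 106933517-107123668 on the minus strand. It measured 2.04, 2.42 and 1.66 FPKM in MSC replicates 0, 1 and 2, and 6.36, 5.97 and 3.76 in vehicle replicates 1, 3 and 4. Every MSC value was below every vehicle value, and the vehicle mean was 2.63 times the MSC mean. The log2 difference was -1.05 ± 0.21 (SE; unadjusted p = 0.000817 and adjusted p = 0.357 in limma). In the Cancer-labelled library it was as low as in MSC livers, at 1.92 FPKM. Pseudogenes and the gene Ppfia2 overlap its locus, and those listed reached at most 0.152 FPKM in any library. On this scale low genes are understated: the log2 difference was -1.33 with a pseudocount of 0.1 and -0.55 with 5, where that of Aldh3a2, at -0.85, exceeded it.

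**Figure D3:**
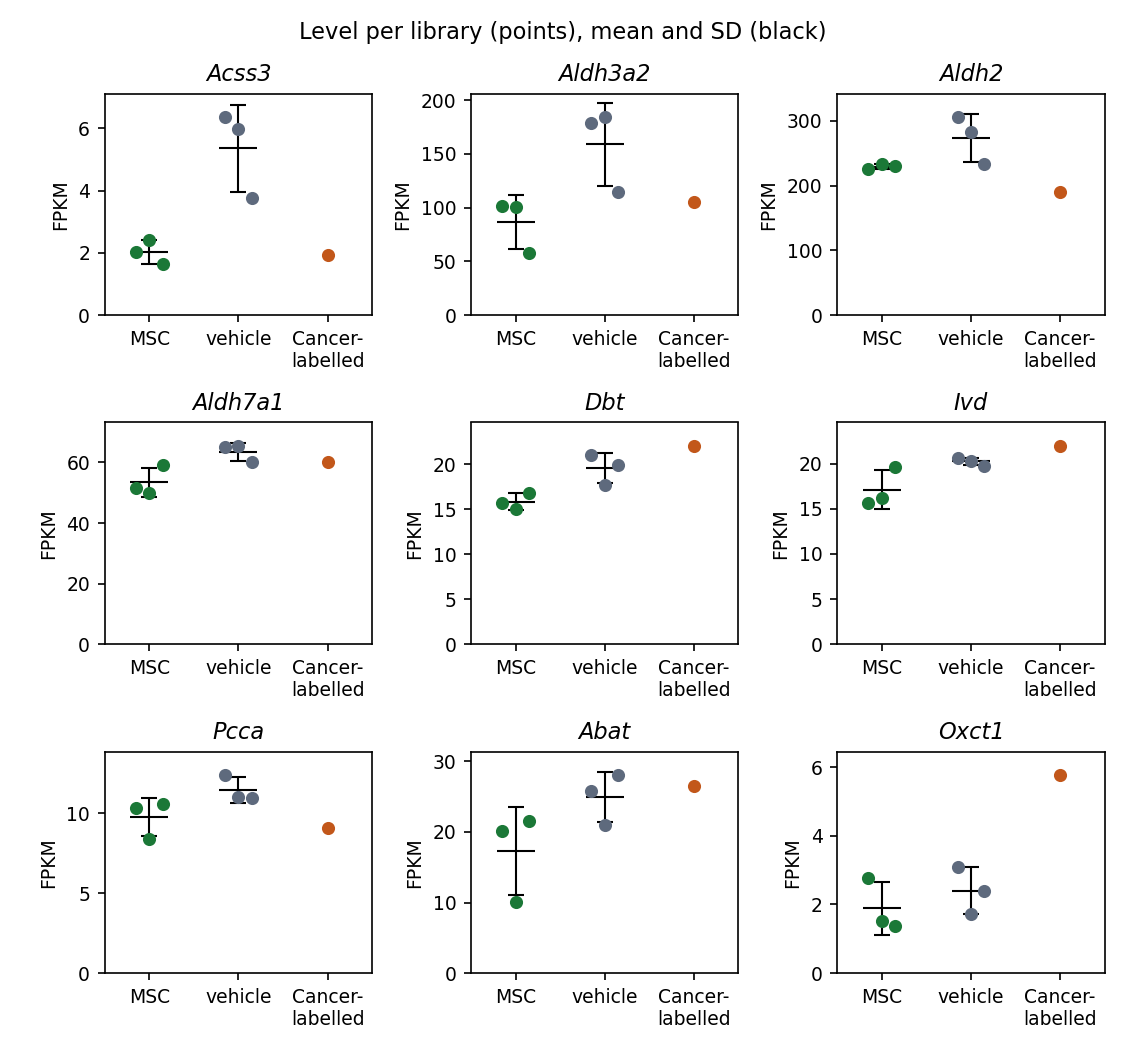
Points show FPKM in each library for 9 members, from MSC (green), vehicle (grey) and Cancer-labelled vehicle (orange) livers, with the mean and SD in black for the groups of 3. Acss3 spans 1.66 to 2.42 FPKM in MSC and 3.76 to 6.36 in vehicle libraries, and Oxct1 reaches 5.76 in the Cancer-labelled library.

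The carboxylase and mutase steps to succinyl-CoA differed less. Pcca, the biotin-carrying alpha subunit of propionyl-CoA carboxylase (chromosome 14, 122534324-122891100, plus strand), measured 10.4, 8.38 and 10.6 FPKM in MSC replicates 0, 1 and 2, and 12.4, 11.0 and 10.9 in vehicle replicates 1, 3 and 4. The groups did not overlap, but MSC replicate 2 and vehicle replicate 4 nearly met. The log2 difference was -0.21 ± 0.16 (SE; limma adjusted p = 0.995) and -0.12 without MSC replicate 1. Ggact shares 74878 bases with Pcca on the opposite strand, at 3.06 to 4.30 FPKM, so the level of Pcca is uncertain. Pccb, the beta subunit, measured 38.1 ± 8.52 in MSC and 42.2 ± 3.99 FPKM in vehicle livers (SD, n = 3 each) and was 3.35 to 4.30 times Pcca over the 7 libraries. Mmut, the mutase, measured 29.6 ± 7.59 against 37.3 ± 8.12 FPKM and Mcee, the epimerase before it, 23.9 ± 7.19 against 23.6 ± 4.44 (SD, n = 3 each). The mutase's partners were far less abundant. Mmaa, its GTPase chaperone, measured 2.35 ± 0.249 against 2.69 ± 0.247 FPKM, and Mmab, which makes adenosylcobalamin, 2.46 ± 0.693 against 2.45 ± 1.01 (SD, n = 3 each). Mlycd, malonyl-CoA decarboxylase, measured 25.5 ± 3.17 against 27.5 ± 4.31 FPKM (SD, n = 3 each).

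Succinyl-CoA synthetase is built from the alpha subunit Suclg1 and either of 2 beta subunits, the GTP-forming Suclg2 or the ATP-forming Sucla2. Suclg2 was 1.72 to 2.42 times Sucla2 in FPKM in the 7 libraries, and the mean ratio was 2.1 ± 0.318 in MSC and 2.12 ± 0.362 in vehicle livers (SD, n = 3 each). Suclg1 measured 26.0 ± 2.59 FPKM in MSC and 30.6 ± 5.28 in vehicle livers (SD, n = 3 each). Oxct1, which uses succinyl-CoA to burn ketone bodies and is a gene that hepatocytes are known to keep almost silent, measured 2.78, 1.51 and 1.36 FPKM in MSC and 3.08, 1.72 and 2.40 in vehicle libraries. These values overlapped.

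The aldehyde dehydrogenases and aminotransferases that share the KEGG pathway had 6 of 6 members lower in MSC livers (median log2 difference -0.25), against 60.1% of all genes. In FPKM 3 of them did not overlap (Aldh3a2, Aldh2 and Aldh7a1), against 7.84% of all genes. As TPM this held for Aldh3a2 and Aldh7a1, and after median centring or quantile normalisation for Aldh3a2 alone. With mitochondrially encoded genes removed it held for none of the 3. Aldh3a2, the fatty aldehyde dehydrogenase of the endoplasmic reticulum (chromosome 11, 61223417-61267464, minus strand), measured 102, 101 and 57.4 FPKM in MSC replicates 0, 1 and 2, and 178, 184 and 114 in vehicle replicates 1, 3 and 4. Every MSC value was lower, with vehicle replicate 4 nearest. The vehicle mean was 1.84 times the MSC mean, and the log2 difference was -0.89 ± 0.30 (SE; unadjusted p = 0.0171 and adjusted p = 0.709 in limma). Aldh2, the mitochondrial acetaldehyde dehydrogenase and the most abundant member (chromosome 5, 121566027-121593824, minus strand), measured 225, 233 and 230 in MSC and 306, 283 and 233 in vehicle libraries. The MSC values lay close together and vehicle replicate 4 exceeded the highest of them by under 1 FPKM. The log2 difference of Aldh2 was -0.25 ± 0.22 (SE; limma adjusted p = 0.995), and -0.16 without vehicle replicate 1.

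Aldh7a1, which acts in lysine breakdown (chromosome 18, 56509687-56572951, minus strand), measured 51.4, 49.8 and 59.0 FPKM in MSC and 65.0, 65.3 and 60.1 in vehicle libraries. The groups did not overlap, the Cancer-labelled library was at 60.1, and the log2 difference was -0.25 ± 0.18 (SE; limma adjusted p = 0.995). Its locus overlaps the protein-coding gene Phax on the opposite strand, at 6.6 to 9.36 FPKM. Abat, the GABA and beta-alanine transaminase (chromosome 16, 8513429-8621568, plus strand), measured 20.2, 10.1 and 21.6 in MSC and 25.8, 21.0 and 28 in vehicle libraries. MSC replicate 1 set most of its log2 difference, which was -0.56 ± 0.28 (SE; limma adjusted p = 0.982) and -0.24 without that library. Aldh9a1, which acts in carnitine synthesis, measured 54.2 ± 4.08 against 60.6 ± 8.67 FPKM, and Agxt2, a mitochondrial aminotransferase of aminoisobutyrate, 51.1 ± 5.31 against 58.2 ± 17.4 (SD, n = 3 each), and both overlapped.

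**Figure D4:**
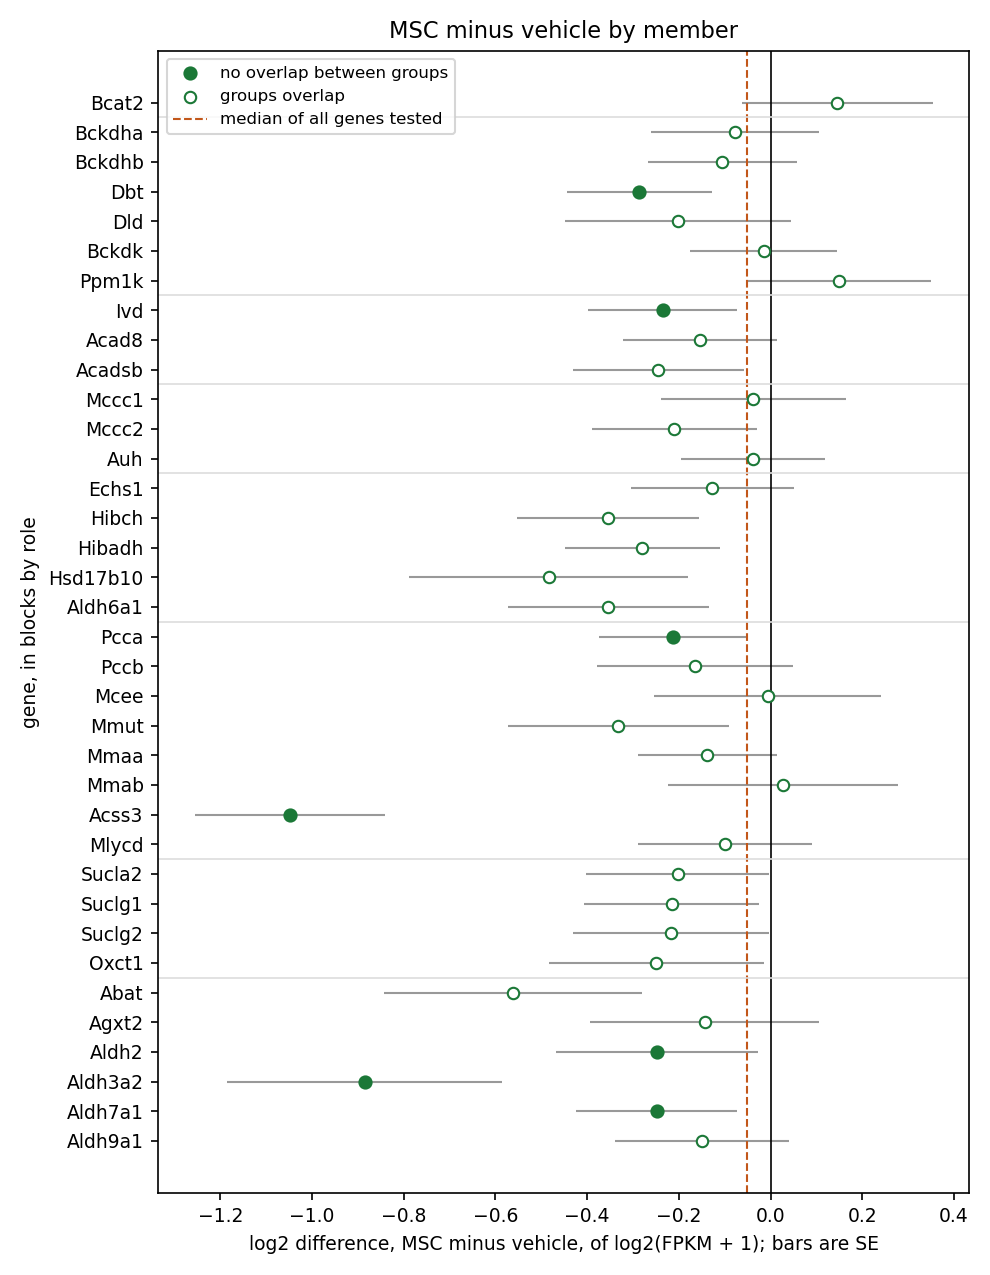
Points show, for each of the 36 members tested, the MSC minus vehicle difference in log2(FPKM + 1) with the SE as bars, filled where the groups do not overlap. The members spread from -1.05 (Acss3) to 0.15 (Ppm1k), and 33 of 36 lie below 0, where the dashed line marks the median of all genes at -0.05.

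The libraries contributed unequally, and over whole profiles each MSC library was nearest to a vehicle library. Over genes at 1 FPKM in 3 or more libraries, MSC replicate 0 differed from vehicle replicate 1 by a median absolute log2 of 0.169. From MSC replicates 1 and 2 it differed by 0.323 and 0.318. MSC replicates 1 and 2 differed from vehicle replicate 3 by 0.231 and 0.203, and from each other by 0.239. MSC replicate 1, with the large mitochondrial share, held the lowest value of the 7 libraries for 17 of the 36 members, MSC replicate 0 for 7 and MSC replicate 2 for 4. Vehicle replicate 1 held the highest value for 15 members and vehicle replicate 3 for 13. Vehicle replicate 4 lay below the vehicle mean for 28 members and by a median log2 of -0.15, about as far as MSC replicate 0 (-0.13) and MSC replicate 2 (-0.13). Without vehicle replicate 4, 16 members did not overlap between groups, against 13.1% of all genes, and without vehicle replicate 1 the number of members lower in MSC was 28, against 47.8% of all genes. The summed FPKM of the members was 1088 to 1141 in MSC, 1178 to 1477 in vehicle and 1129 in the Cancer-labelled library. Aldh2 and Aldh3a2, the most abundant members, weigh most in this sum. As a share of the summed FPKM of all genes the groups overlapped, with 0.297% in MSC replicate 0 and 0.274% in vehicle replicate 4. The part of the mitochondrial share in the members' differences was not tested, apart from the removal and rescaling given above, which raised MSC replicate 1 the most.

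In the Cancer-labelled library, compared with the same 3 vehicle libraries, more members were lower than higher, while in FPKM most genes were higher. Over all 12265 genes tested the median log2 difference, Cancer-labelled minus vehicle, was 0.25 and 22.8% of genes were lower. Lower values were found for 22 of the 36 members and higher ones for 14, and their median was -0.10. None passed in limma over all genes, where 4.17% did (0.188% lower and 3.98% higher). An unadjusted p under 0.05 was reached by 2 members, Acss3 and Oxct1, against 17.2% of all genes. A log2 difference of -0.5 or below was found in 3 members and 4.15% of all genes, and one of 0.5 or above in 1 member and 25.1% of all genes. The library lay below the vehicle range for 15 members, 41.7% against 10.6% of all genes, and above it for 4, 11.1% against 56.2%. Scaling moved this count: 20 members were lower as TPM and 19 with mitochondrially encoded genes removed, against 18.3% and 17.7% of all genes. After quantile normalisation 31 were lower and after median centring 35, but so were 53.9% and 57.5% of all genes, so most genes were then lower, not higher. The filter admits genes that reach 1 FPKM in that library alone, and the part of this in the median of all genes was not tested. Among genes averaging at least 5 FPKM the median of all genes was 0.11 and that of 28 members was -0.20. Without a filter on low values the medians were 0.07 for all genes and -0.08 for 37 members.

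**Figure D5:**
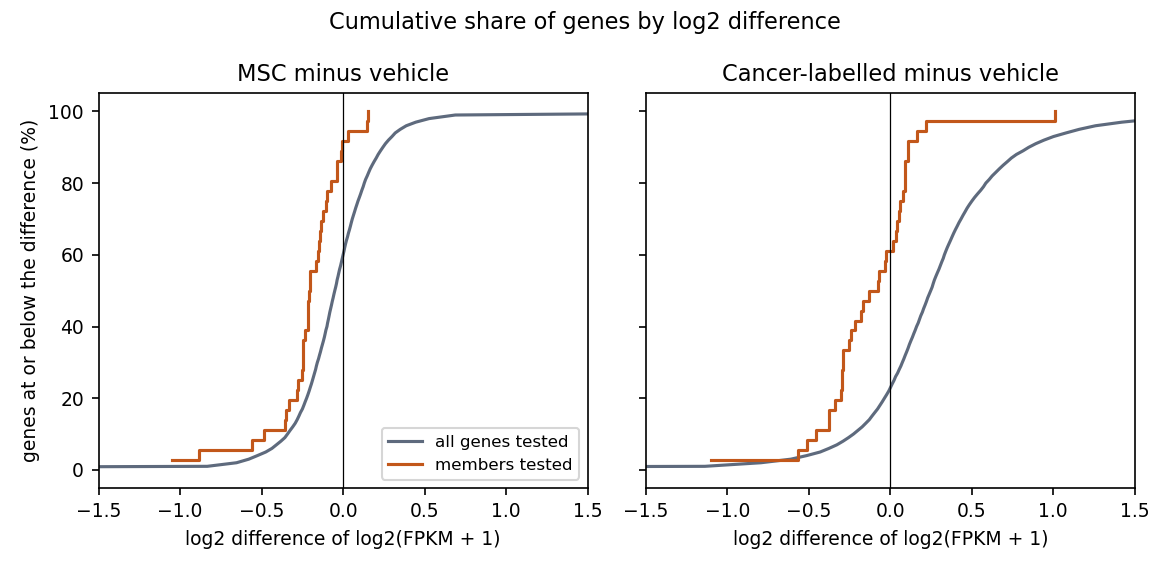
Curves show the cumulative percentage of genes (vertical axis) at or below each log2 difference (horizontal axis) for all genes tested (grey) and the 36 members (orange), in MSC minus vehicle (left) and Cancer-labelled minus vehicle (right). The median of members is -0.21 against -0.05 for all genes on the left, and -0.10 against 0.25 on the right.

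Oxct1 (chromosome 15, 4026383-4155344, plus strand) had the largest rise in value, at 5.76 FPKM in the Cancer-labelled library against 1.36 to 3.08 in the other 6. That was 2.40 times the vehicle mean, with a log2 difference of 1.01 (limma unadjusted p = 0.0152, adjusted p = 0.163). The bile duct markers moved with it: Krt19 was at 24.4 FPKM against 0.868 to 1.11 in vehicle libraries and Epcam at 21.6 against 1.08 to 4.01, and 7 of 7 tested bile duct markers were higher, 6 of them past the threshold in limma. Their part in the Oxct1 value was not tested. Acss3 was lower, with a log2 difference of -1.10 (limma adjusted p = 0.0955). It passed after median centring (adjusted p = 0.0359) and quantile normalisation (adjusted p = 0.0273), and its adjusted p over all alternatives ran from 0.0273 to 0.220. Aldh3a2 at 105 and Aldh2 at 191 FPKM were below all 3 vehicle values, with log2 differences of -0.57 and -0.51 (limma adjusted p = 0.532 and 0.436). This comparison uses the same vehicle libraries as MSC minus vehicle, so a gene low in both rests on shared control values.

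Of the 8 members from propionate and propionyl-CoA to succinyl-CoA, 4 lay below the vehicle range in this library (Acss3, Pcca, Pccb and Mmut) and none above it. Of all genes, 10.6% lay below the range and 56.2% above it. Mcee, the epimerase between carboxylase and mutase, lay within the range at 22.9 FPKM. Pccb was at 30.4 FPKM, Pcca at 9.07, Mmut at 29.8 and Aldh6a1 at 47.2, each under all 3 vehicle values given above. Hibch at 10.6 and Hibadh at 19 were also under the vehicle range, as were Acadsb at 9.46, Suclg2 at 43.1, Sucla2 at 24.8, Mccc2 at 11.9, Bckdha and Ppm1k. Dbt at 22.0, Ivd at 21.9, Bcat2 at 5.23 and Oxct1 were above it. Apart from Acss3, Oxct1, Aldh3a2 and Aldh2, the 32 other members differed by between -0.46 and 0.22 on the log2 scale (limma adjusted p from 0.478 to 0.985). With 1 library, the spread in these tests came from the other groups.

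Genes around the pathway were read from the same fits, where 60.1% of all genes were lower in MSC livers (median log2 difference -0.05). Of 18 other KEGG genes of this pathway tested, 15 were lower in MSC livers and none passed (median log2 difference -0.27). Ehhadh, a peroxisomal bifunctional enzyme, measured 164, 144 and 256 FPKM in MSC and 450, 883 and 972 in vehicle libraries, without overlap (limma adjusted p = 0.357). Acadm, medium-chain acyl-CoA dehydrogenase, measured 84.1, 55.6 and 65.6 against 96.6, 105 and 91.0, also without overlap (limma adjusted p = 0.822). The related pyruvate and oxoglutarate dehydrogenase genes had 10 of 11 lower (median -0.21), with Dlst, the oxoglutarate counterpart of Dbt, at 13.5, 11.5 and 14.0 against 19.9, 18 and 15.8 FPKM. Citric acid cycle enzymes had 13 of 14 lower (median -0.17). Idh3a, an isocitrate dehydrogenase subunit, measured 5.01, 4.68 and 5.17 FPKM in MSC and 7.13, 8.32 and 8.21 in vehicle libraries, without overlap (limma adjusted p = 0.590).

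Over all genes, 60.1% were lower in MSC livers, with a median of -0.05. Near that share were cobalamin handling, with 5 of 7 genes lower (median -0.14), and biotin and lipoate cofactor genes, with 6 of 10 (-0.07). So were regulators linked to the pathway, with 5 of 8 (-0.14). Amino acid transporters had 4 of 5 genes lower (-0.24) and other amino acid catabolism 25 of 30 (-0.22). None of the genes in these lists was past the threshold in limma. Slc25a44, the mitochondrial carrier of branched-chain amino acids, measured 11.1, 9.79 and 9.58 FPKM in MSC and 15.0, 11.3 and 11.5 in vehicle libraries, without overlap. Slc38a2, a plasma membrane amino acid carrier, was the 1 transporter gene with a higher mean log2 level, at 21.4, 16.1 and 24.3 against 16.9, 13.1 and 13.5, with overlap. Oat, ornithine aminotransferase, measured 82.1, 150 and 125 in MSC and 311, 368 and 410 in vehicle libraries, without overlap (limma adjusted p = 0.273). Klf15, a transcription factor linked to amino acid breakdown, was at 37.8, 44.3 and 38.9 against 38.9, 29.3 and 30.6, with overlap. In the Cancer-labelled library Aldh1b1, a mitochondrial aldehyde dehydrogenase of the same KEGG pathway, rose to 47.5 FPKM against 13.7 to 21.7 in vehicle libraries (log2 difference 1.42; limma adjusted p = 0.0354). Oat fell to 89.6 against 311 to 410 (adjusted p = 0.0252), and Cth, cystathionine gamma-lyase, rose to 137 against 44.7 to 65.9 (adjusted p = 0.0498). These genes were named from the 8 surrounding lists for passing the threshold in that library, and the share of all genes that passed is given above. How many genes passed moved with the pseudocount and the filter, as given below.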

How the data were processed

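RNA from 7 liver samples was sequenced, 1 library each. The authors deposited FPKM values for each gene, per the file headers. The submitters' processing notes name StringTie 2.1.6, HISAT2 2.2.1, FastQC 0.11.9 and cutadapt 1.9, as well as mm10 and GRCm38, and state neither role nor order. At best 28.0% to 30.4% of low values were within 0.1 of a whole read, where 20% would be by chance, so no count test was run. Values were analysed as log2(FPKM + 1). MSC minus vehicle was fitted with limma (trend) over genes that reached 1 FPKM in 3 or more of the 6. The Cancer-labelled library was fitted with all 7 libraries in 3 groups, over genes reaching 1 FPKM in 3 libraries or in that library. Benjamini-Hochberg adjustment ran over all genes tested. Overlapping genes came from GENCODE M21, which gave 33 of the 37 members the deposited start and end.

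The members and lists were chosen with earlier results of these data known. Every member is accounted for by role. Values per library are given for members without overlap between groups, with a log2 difference of at least 0.5 in size, past the threshold, or in the ketoacid dehydrogenase complex, and for some others chosen after their values were seen. From the surrounding lists, genes were named from the 3 of lowest p in each, or for passing in the Cancer-labelled library. The promoter motifs and the genes whose promoters are shown were also chosen after seeing the data. The limma step was tested on simulated data. Software was R 4.3.3, limma 3.58.1, data.table in version 1.17.8, Python 3.11.15, pandas 2.3.3, numpy 2.4.6 and matplotlib 3.10.9.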

Additional observations from a re-analysis of the deposited data

How the results depend on the processing

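The 8 members given with a log2 difference for MSC minus vehicle (Acss3, Aldh3a2, Abat, Aldh2, Aldh7a1, Dbt, Ivd and Pcca) kept a negative sign in every alternative that tested them, and none passed in limma. For all but Abat the groups did not overlap, so another pseudocount, filter or eBayes setting, or leaving out libraries, could not change the sign. Only the other scalings and the Cancer-labelled library counted as vehicle could have done so. The 4 for the Cancer-labelled library (Acss3, Oxct1, Aldh3a2 and Aldh2) kept their sign too, with a like limit, because each lay outside the vehicle range. The log2 difference of Acss3 was -1.41 after median centring and -1.44 after quantile normalisation.

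For MSC minus vehicle, the count of genes past the threshold (2) was 1 with a mean of at least 5 FPKM, 1 with the Cancer-labelled library counted as vehicle, 1 with MSC replicate 0 and vehicle replicate 1 both left out, and 1 to 8 (8 without vehicle replicate 1) when leaving out each library in turn. The median of members was -0.31 as TPM, where the median of all genes was -0.14, -0.12 with mitochondrially encoded genes removed, -0.13 after quantile normalisation, and -0.25 to -0.14 when leaving out each library. Members without overlap (7) numbered 2 after median centring, 2 after quantile normalisation, 2 with mitochondrially encoded genes removed, 4 with that library counted as vehicle, 12 with both libraries left out, and 9 to 16 when leaving out each library, where fewer values make overlap less likely. The share of all genes was 6.09% with that library counted as vehicle, 28.1% with both left out, and 10.1% to 24.9% when leaving out each library (24.9% without MSC replicate 0, with 10 members), so 12 and 10 of 36 are near it. Members lower numbered 28 to 34.

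For the Cancer-labelled library, genes past the threshold (511) numbered 13 with a pseudocount of 0.1, 838 with a pseudocount of 5, 1035 without the filter on low values, 7 above a mean of 5 FPKM, and 267 (without vehicle replicate 3) to 607 (without vehicle replicate 1) when leaving out vehicle libraries in turn, with 284 without vehicle replicate 4. Of those calls 4.50% were lower, against 30.8% with a pseudocount of 0.1 and 28.6% above a mean of 5 FPKM and 17.0% after quantile normalisation. The median of members was -0.41 after median centring and -0.28 after quantile normalisation, and members lower and outside the vehicle range numbered 35 and 33 (32 of them below it) after median centring, where 57.5% of all genes were lower and 37.3% below the range. Leaving out vehicle libraries gave medians of -0.21 to -0.07, 21 to 27 members lower and 23 to 26 outside the vehicle range. Apart from the altered scaling, filter or number of libraries, the cause was not tested.

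No paired analysis was run, because the labels do not pair MSC with vehicle libraries. The filter of a mean of at least 5 FPKM left Acss3 and Oxct1 untested. Depth is unknown, so members near 2 FPKM (Bckdk, Mmaa, Mmab, Auh, Oxct1 and Acss3) are of unknown counting precision.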
